A study of Drosophila melanogaster with 4 samples.

Results

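Of 13729 protein-coding genes measured by ribosome footprinting in Drosophila melanogaster ovaries, 57 were nearly silent in wildtype and had footprints in both RpS5b mutant libraries. Each of the 57 had at most 3 footprint counts summed over the 2 wildtype libraries and at least 10 counts in each of the 2 mutant libraries. The cell death gene rpr, with 0 and 0 against 30 and 21 counts, also met these limits and was left out by the rule. The same 4 libraries that chose the genes supply the values below, so the difference between mutant and wildtype is a description and carries no test.

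In ribosome footprinting, RNA is digested and the short pieces covered by ribosomes are sequenced, so the count of a gene reflects both its mRNA level and its ribosome occupancy. The control libraries came from ovaries labelled wildtype and the others from ovaries mutant for RpS5b, which encodes one of a pair of fly paralogs of ribosomal protein S5. Ovaries of both genotypes were dissected 48 hours after eclosion, and egg chambers of stages 10 to 14 were removed from the control ovaries. The labels used here give no allele, strain or number of animals, and none says that the libraries of a genotype came from separate animals, so the spread between libraries may be technical.

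A fly ovary is a chain of egg chambers in which germline cells are wrapped by follicle cells, an epithelium that makes yolk and eggshell proteins, and it is held by a muscular sheath with attached nerve, trachea and blood cells. Many genes of other tissues, such as chemoreceptors, cuticle pigment genes and cilium genes, are little used there. In libraries made from a mix of ovary cell types, more cells of a type and more footprints per cell cannot be told apart. Late egg chambers were removed from the control ovaries, so this removal cannot be told apart from genotype for any of the chosen genes. Its part in their levels was not tested.

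The mutated gene RpS5b had 287 and 342 wildtype counts against 10 and 9 mutant counts, and its paralog RpS5a had 137 and 180 against 1769 and 726. The mutant libraries were deeper: protein-coding genes held 1053582 and 1738242 counts in wildtype and 4600322 and 3066647 in the mutant, and the mutant group was 2.54 times as deep in effective library size. Germline markers were present in all libraries, with summed levels of 348 and 313 CPM (counts normalised to sequencing depth) in wildtype against 261 and 290 in the mutant, and none of the 6 germline markers was at 0 in any library. Of these 6, 2 were called lower in the mutant, osk (log2 fold change -1.98, edgeR adjusted p = 0.000331) and nanos (-0.46, edgeR adjusted p = 0.0365), and none higher. Follicle cell markers summed to 1970 and 1270 CPM in wildtype against 3210 and 2840 in the mutant. The rise in this sum was that of Yp1, at 424.7 and 249.5 CPM in wildtype and 1952 and 1717 in the mutant. The sum is therefore not a measure of the follicle cells. Of the 8 tested, 7 were called higher and Cp36 lower (log2 fold change -1.47, edgeR adjusted p = 0.0209), where 20.4% of all 7782 genes tested were called higher. Late egg chambers were removed from the control ovaries, and the part of this removal in the marker levels was not tested.

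Mutant library 1 stood apart in genes of the male reproductive tract. The 47 genes with Acp or Sfp symbols, most of which encode seminal fluid proteins, had 158 counts in mutant library 1, spread over 26 genes, 0 in mutant library 2 and 1 in each wildtype library. Acp36DE alone had 49 counts in mutant library 1 and 0 in the other libraries. Of the 7 listed markers of male accessory gland and testis, 5 were detected in mutant library 1 and 1 in mutant library 2. Sems and dj had no count in any library, and betaTub85D was called lower in the mutant (log2 fold change -1.25, edgeR adjusted p = 0.0251). The 12 antimicrobial peptide genes also differed between the mutant libraries, at 27.7 and 10.6 CPM, beside 14.2 and 17.5 in wildtype. Of 46 coding genes with at most 3 wildtype counts and at least 20 in mutant library 1, 16 had fewer than 10 counts in mutant library 2 and 8 had none, among them CG17097 with 71 against 0. Of 16 such genes chosen on mutant library 2, 1 had fewer than 10 counts in mutant library 1. The rule asks for at least 10 counts in mutant library 2, where Acp and Sfp genes had 0, so none could belong. Among the members, Met75Ca and Met75Cb had 370 counts each in mutant library 1 and 17 in mutant library 2.

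Low counts were common, and the set is a small share of them. In wildtype, 6075 coding genes had at most 3 counts. Of these, 4441 had no count in either mutant library, 1375 had 1 to 9 mutant counts in all, 163 had 10 to 19 and 96 had 20 or more. With rpr included, 58 met the limits, and the 57 members without it made up 0.938% of the 6075. Among the 57 members, 13 had no wildtype count, 19 had 1, 10 had 2 and 15 had 3.

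The limits fell within a continuous range of counts. With 3 wildtype counts, y, Zmynd10, CG15930, DIP-iota and CG9451 lay just inside. With 4 wildtype counts, 18 further genes had at least 10 in each mutant library, led by CG14275 with 138 and 81 mutant counts, CG15080 with 45 and 35, CG7720 with 57 and 19, sas with 32 and 27 and CG32032 with 29 and 23. Another 22 had 5, among them Dscam4 with 178 and 125 and CG10175 with 166 and 114. At the mutant limit, 16 members had 10 counts in their lower library, such as CG10654, CG42390, CG43218, CG16713 and CG9521. A further 12 genes missed it with 9, including Muc30E (9 and 32), GstE10 (20 and 9), CG43051 (17 and 9), cas (15 and 9) and CG31807 (9 and 14).

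**Figure D1:**
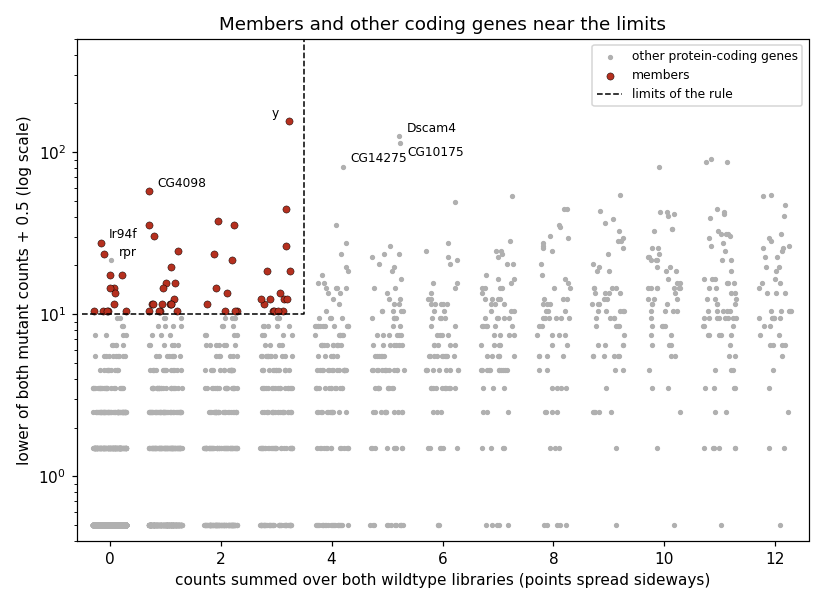
Each point is a protein-coding gene, placed by its counts summed over both wildtype libraries (horizontal, spread sideways) and the lower of its 2 mutant counts plus 0.5 (vertical, log scale). The 57 members (red) lie inside the dashed limits of 3 and 10 counts, rpr is the labelled grey point among them, and Dscam4, CG10175 and CG14275 lie just outside at 5, 5 and 4 wildtype counts.

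The size of the set depended on depth. Footprints were thinned at random, in 1 draw, until each library had the coding total of the smallest one. The same limits were then met by 6 coding genes: the members y, CG4098, nrv3, Zmynd10 and Ir94f, and CG10175. With the genotypes exchanged, 3 genes were nearly silent in the mutant in the deposited counts and 21 in the thinned counts. The excess of genes nearly silent in wildtype, 57 against 3, therefore turned to 6 against 21 at equal depth.

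**Figure D2:**
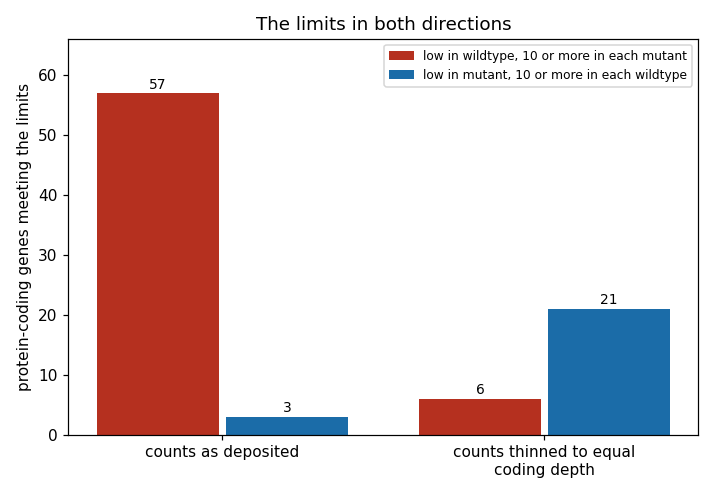
Bars count protein-coding genes with at most 3 counts over both libraries of one genotype and at least 10 in each library of the other. Red bars are genes low in wildtype and blue bars genes low in the mutant: 57 and 3 as deposited, 6 and 21 after thinning all libraries to the smallest coding total.

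The members' footprints were few in both genotypes. Over all members, 84 wildtype and 3351 mutant counts were recorded. The members took 0.00323% and 0.00288% of coding counts in the wildtype libraries against 0.0491% and 0.0356% in the mutant. Their summed levels in mutant libraries 1 and 2 were 176 and 125 CPM, and 102 and 104 CPM without y and the Met75C pair.

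Each gene was set against a floor of 3 counts over both wildtype libraries, which equals 0.352 CPM. Mean mutant levels ran from 0.962 to 17.1 CPM with a median of 1.52, which is 2.73 to 48.5 times the floor with a median of 4.33. At its mutant level, a member would have had between 8.19 and 145 counts over both wildtype libraries, with a median of 13.0, where at most 3 were counted. In the mutant, 25 members had at most 30 counts in all and 16 had more than 50. The pooled ratio of mutant to wildtype had a 95% exact binomial interval wholly above 2 for 31 members, and for Arc2, CG3568 and CG42390 the interval included 1. These intervals cover counting error only, and the genes were chosen for this difference.

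The filter on low counts kept 24 of the 57 members, each through its mutant libraries. All 24 were called higher in the mutant by edgeR's quasi-likelihood test, where 20.4% of the 7782 genes tested were called higher and 20.9% lower. Since the rule used this contrast, nothing is read from that count.

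**Figure D3:**
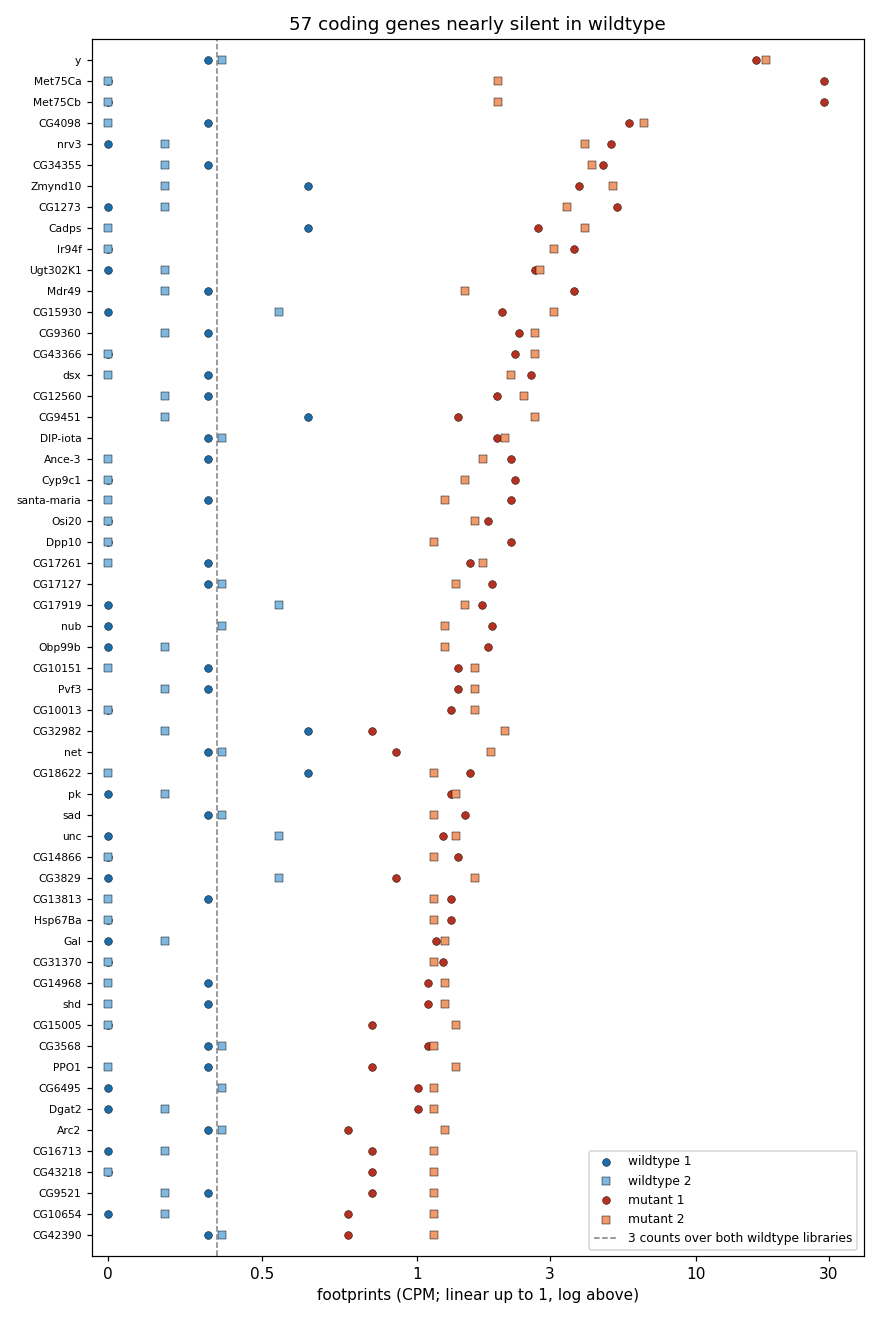
Each row is a member, ordered by mean mutant level, with its level in each library in CPM (linear up to 1, log above). Blue points are wildtype 1 (circle) and 2 (square), red and orange points mutant 1 (circle) and 2 (square), and the dashed line is the floor of 0.352 CPM; y and the Met75C pair lead, and most members lie near the median of 1.52 CPM in the mutant.

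The highest mean level was that of y, which is needed for black pigment in the cuticle. It had 1 and 2 counts in wildtype against 211 and 155 in the mutant, where its level was 17.1 ± 0.977 CPM (SD, n = 2). Both mutant libraries were far above both wildtype libraries, and the pooled ratio was 48.1 (95% interval 16.3 to 234). The counted transcript lies on chromosome X at 356509 to 361245 of build BDGP6, on the plus strand. The eye colour gene w, which also lies on X, had 1 and 0 counts in wildtype and 0 and 2 in the mutant. The labels used here do not say whether the genotypes carried marker alleles of y or w. They give no allele or strain, so genotype background and the mutation of RpS5b cannot be told apart for y or any other member.

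Met75Ca and Met75Cb were the other genes above 10 CPM on average, through a single library. They had no wildtype count and identical mutant counts, 370 in library 1 and 17 in library 2, or 28.8 and 1.95 CPM. Their transcripts lie 2525 bp apart on the minus strand of chromosome 3L, at 18472143 to 18472384 and 18469378 to 18469618, and reads shared by these copies could not be told apart. Their mean was 43.6 times the floor, at 15.4 CPM, a value that neither mutant library was near. Their excess in library 1 went with the 158 against 0 Acp and Sfp counts given above, whose part in it was not tested.

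The rule required 10 counts in each mutant library, which leaves out genes present in only 1 of them. Within that limit, the ratio of mutant library 1 to library 2 in CPM had a median of 0.922 and lay within 2-fold for 53 of the 57 members, and 23 members were higher in library 1. Over all 7084 coding genes with at least 10 counts in each mutant library, the median was 1.01 and 99.1% lay within 2-fold. Apart from the Met75C pair, with a ratio of 14.7, it ran from 0.414 for CG32982 to 2.45 for Mdr49.

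**Figure D4:**
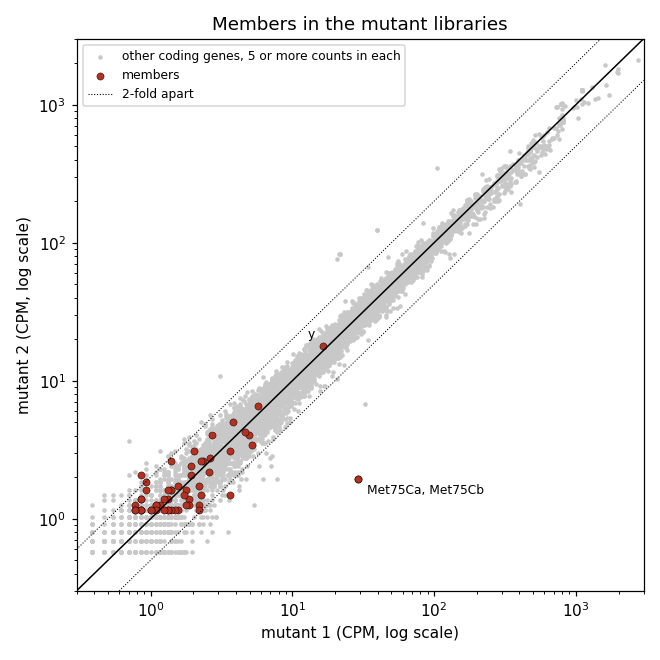
Each point is a coding gene, with its level in mutant library 1 (horizontal) and mutant library 2 (vertical) in CPM on log scales; red points are members and grey points other coding genes with 5 or more counts in each library. The solid line marks equal levels and the dotted lines 2-fold; Met75Ca and Met75Cb coincide at 28.8 and 1.95 CPM, far from the line, and 53 members lie between the dotted lines.

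Several members act at the membrane or in secretion. For nrv3, which encodes a beta subunit of the sodium-potassium pump, there were 0 and 1 counts in wildtype and 64 and 35 in the mutant, with a pooled ratio of 39.0 (6.85 to 1560). Cadps, an activator of dense-core vesicle release in neurons and the only member on chromosome 4, had 2 and 0 against 35 and 35. The ABC transporter gene Mdr49 had 1 and 1 against 47 and 13, the second widest gap between mutant libraries after the Met75C pair. In each of these, both mutant libraries exceeded both wildtype libraries in CPM, as in every member, since the limits of the rule all but require it.

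Surface proteins of the immunoglobulin and peptidase classes were present at lower levels. DIP-iota, a partner of the Dpr proteins on neurons, had 1 and 2 against 25 and 18 counts. Dpp10, a dipeptidyl peptidase family gene, had none in wildtype against 28 and 10, a mean of 4.71 times the floor. Ance-3, a relative of angiotensin-converting enzyme, had 1 and 0 against 28 and 15, and santa-maria, a scavenger receptor needed for carotenoid uptake, had 1 and 0 against 28 and 11. DIP-iota and Dpp10 are near each other on chromosome 2L, 16066 bp apart with 1 gene between them. Markers of nerve, where several of these genes are known to act, summed to 2.27 and 1.66 CPM in wildtype and 2.41 and 2.87 in the mutant, with 5 of 8 at 0 in every library.

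A pair of members is known from cilia, but no list of cilium genes was counted. The cilium genes Oseg5 and Oseg1, given below, went the other way at equal coding depth. Zmynd10, which helps assemble the dynein arms of motile cilia, had 2 and 1 against 49 and 44 counts, or 4.43 ± 0.876 CPM (SD, n = 2), with a pooled ratio of 12.2 (4.06 to 60.4). At the lower end, unc, needed at ciliary basal bodies, had 0 and 3 against 16 and 12. The transcript of Zmynd10 ends 1 bp from its neighbour RpS12, which had 220 and 312 against 1625 and 726 counts and was called higher (log2 fold change 0.71, edgeR adjusted p = 0.0364). Whether reads of RpS12 enter the count of Zmynd10 was not tested.

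Of the chemosensory families, the ionotropic receptors and the odorant-binding proteins had 1 member each, and the 58 Or and 59 Gr genes had none. Ir94f, of the ionotropic receptor family, had no wildtype count against 47 and 27. Its mean mutant level, 9.58 times the floor, was the highest among members at 0 in wildtype after the Met75C pair. Of 60 Ir genes, 6 had any count in mutant library 1 and 3 in each of the other libraries. Together the family had 66 and 39 counts in the mutant, of which Ir94f held 47 and 27. The odorant-binding protein gene Obp99b had 0 and 1 against 23 and 11. Obp99b is also among the 7 genes listed here for oviduct and reproductive tract. Their summed level was lower in the mutant (61.9 and 56.3 CPM) than in wildtype (184 and 148), with 2 of 3 tested genes called lower. Most of that sum is yellow-g2, at 168.6 and 133.7 CPM in wildtype and 46.7 and 43.1 in the mutant, so the sum is not a measure of the oviduct. Drip was not called (log2 fold change 0.0097), and Send1 and Send2 had no count in any library.

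Members that encode transcription factors were dsx, nub and net. For dsx, the switch gene of sexual differentiation, there were 1 and 0 counts in wildtype and 33 and 19 in the mutant, or 2.37 ± 0.272 CPM (SD, n = 2), with a pooled ratio of 20.5 (3.52 to 825). The counts do not say which sex-specific form was present, since each of its 6 transcripts had 51 or 52 mutant counts. The POU-domain gene nub had 0 and 2 against 24 and 11, and net, a bHLH gene known from wing veins, had 1 and 2 against 12 and 16. Of 26 male germline genes matched, none belongs to the set and 11 had no count in any library; of 8 tested, 3 were called higher and 2 lower, with a median log2 fold change of 0.25 beside 0.03 over all genes tested. The higher ones were mia, achi and vis, of which achi and vis are near-identical copies. None of these 3 higher calls was made by DESeq2. The 2 lower ones were twe (log2 fold change -3.56, edgeR adjusted p = 6.36e-05) and betaTub85D, given above. In CPM, twe was at 19.42 and 18.26 in wildtype against 1.632 and 1.491 in the mutant.

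Hormone and signalling genes were near the lower limit. Both sad and shd, hydroxylases of the late steps of ecdysone synthesis, were members, with 1 and 2 against 19 and 10 counts and 1 and 0 against 14 and 11. Pvf3, a ligand of the receptor Pvr, had 1 and 1 against 18 and 14, and the planar polarity gene pk had 0 and 1 against 17 and 12. Each exceeded wildtype in both mutant libraries in CPM, as every member did. Pvf3 was highest of these 4 at 1.40 and 1.61 CPM, and shd lowest at 1.09 and 1.26. The JAK-STAT ligand gene upd3, with 1 and 2 against 17 and 8 counts, fell outside the limits.

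Enzyme members spanned detoxification, sugar and lipid metabolism. Ugt302K1, a UDP-glycosyltransferase family gene, had 0 and 1 counts in wildtype and 34 and 24 in the mutant, with a pooled ratio of 22.9 (3.95 to 919). The cytochrome P450 gene Cyp9c1 had none against 29 and 13, a mean of 5.31 times the floor. The beta-galactosidase gene Gal had 0 and 1 against 15 and 11. Dgat2, a diacylglycerol acyltransferase gene, had 0 and 1 against 13 and 10, and the gene beside it, CG1941, had 4 and 3 against 112 and 53 (log2 fold change 3.16, edgeR adjusted p = 0.0017). Among genes with these symbols, 1 of 85 Cyp, 1 of 35 Ugt and none of 35 Gst genes were members; sad and shd also encode cytochrome P450 enzymes, under other symbols.

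The remaining named members were Osi20, Hsp67Ba, PPO1 and Arc2. Osi20, of the Osiris family, had none against 23 and 14 counts, and all 23 Osi genes together had 38 and 23 mutant counts. Hsp67Ba, of the small heat shock protein family, had none against 17 and 10, while its neighbour Hsp26 was lower in the mutant with 3749 and 5760 against 2783 and 2721 (log2 fold change -2.11, edgeR adjusted p = 0.000598). PPO1, a prophenoloxidase of blood crystal cells, had 1 and 0 against 11 and 12. The 9 blood cell markers, PPO1 included, summed to 78.0 and 82.2 CPM in wildtype and 101 and 92.4 in the mutant, with crq the only 1 of 4 tested that was called higher, a call not made by DESeq2. Arc2, a relative of neuronal Arc, had 1 and 2 against 10 and 11.

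The other 28 members have only a CG number as their symbol, 49.1% of the set, beside 42.8% of all coding genes and 58.9% of coding genes with at most 3 wildtype counts. Their mean mutant levels ran from 0.962 to 6.14 CPM with a median of 1.41, and 6 had no wildtype count. CG4098 led them with 1 and 0 against 74 and 57 counts, a pooled ratio of 51.7 (9.11 to 2060); it lies on the minus strand of chromosome 3L at 16608138 to 16609347. CG34355 had 1 and 1 against 60 and 37, and CG1273 had 0 and 1 against 67 and 30.

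The next CG-numbered genes had between 1.62 and 2.56 CPM in the mutant. CG15930 had 0 and 3 against 26 and 27 counts, CG9360 1 and 1 against 30 and 23, and CG43366 none against 29 and 23. CG12560 had 1 and 1 against 25 and 21, and CG9451 had 2 and 1 against 18 and 23. CG17261 and CG17127 followed at 1.64 and 1.62 CPM in the mutant. The lower members were CG17919, CG10151, CG10013, CG32982, CG18622, CG14866, CG3829, CG13813, CG31370, CG14968, CG15005, CG3568, CG6495, CG16713, CG43218, CG9521, CG10654 and CG42390, at means between 0.962 and 1.60 CPM.

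Per length of transcript, the members stayed low in the mutant as well. Their mean mutant RPKM, computed with the authors' formula, had a median of 0.775 and ran from 0.171 for CG42390 to 59.1 for Met75Cb. The 9274 coding genes with a mutant count had a median of 3.24, and 52 of the 57 members lay below it. Those above it were the Met75C pair, y at 8.08, CG4098 at 5.13 and CG17127. The order by CPM and by RPKM therefore differed, with short genes higher on the second scale.

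**Figure D5:**
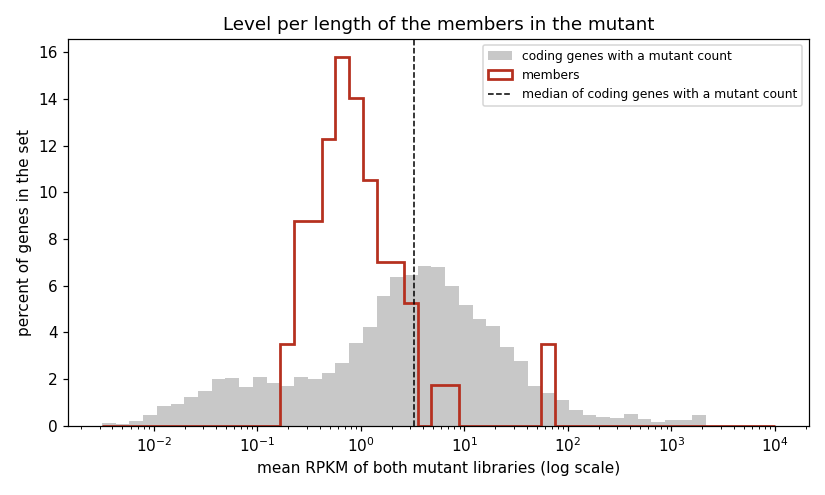
Distribution of the mean mutant level per transcript length in RPKM (log scale) for the 57 members (red outline) and the 9274 coding genes with a mutant count (grey), each as a percent of its set. The dashed line is the median of the grey genes, 3.24; 52 members lie below it, and the bar near 59 is the Met75C pair.

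The choice of transcript mattered little. Of the 57 members, 28 have 1 transcript in the tables, and the longest transcript gave a set of the same size. Among the 29 with several, 24 had every transcript at 90% or more of the highest. Larger gaps were present in Pvf3, shd and CG32982.

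Exons of 14 members overlap another gene, in each case on the opposite strand. Cyp9c1 is covered over 98.2% of its transcript by asRNA:CR43787, which had 0 counts in every library, and Gal over 54.0% by asRNA:CR43866, also at 0. Hsp67Ba shares 75.9% with asRNA:CR43481, at 0 and 2 against 3 and 4 counts, and CG10654 shares 24.8% with vih, at 187 and 364 against 299 and 257. Over these stretches the counting kept strands apart.

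The members were spread over the genome. Chromosome arms 2L, 2R, 3L, 3R, 4 and X held 15, 9, 13, 13, 1 and 6 of them, beside 19.1%, 20.3%, 19.7%, 24.4%, 0.575% and 15.7% of all coding genes. Besides the Met75C pair, pairs within 50 kb were DIP-iota with Dpp10, CG17127 with CG6495 (5897 bp apart) and CG17919 with Osi20 (2605 bp apart). The median member transcript had 1805 nt and 4 exons, against 1686 nt and 3 exons for all coding genes and 1275 nt and 2 exons for coding genes with at most 3 wildtype counts. Of the 110 genes next to a member, 54 were tested, of which 12 (22.2%) were higher and 12 (22.2%) lower in the mutant, near the 20.4% and 20.9% of all genes.

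Lists of genes related to rpr gave no members. Of 10 cell death inducers and caspases, 8 were tested, 4 were higher (2 after thinning to equal depth) and none lower. One of the 4 was rpr itself, which meets the limits of the set, and without it 3 of 7 were higher: Dark, hid (4.59 against 15.9 CPM, log2 fold change 1.85, edgeR adjusted p = 0.000874) and Dronc (2.77 against 10.7 CPM, log2 fold change 1.93, edgeR adjusted p = 0.0012). Of 19 genes of stress, JNK and JAK-STAT signalling, 15 were tested. Of these, 5 were higher, such as Gadd45 and puc, and 3 lower, such as GstD1 and Ilp8. Over all genes tested, 20.4% were higher and 20.9% lower. The median log2 fold change was 0.887 for the cell death list, rpr included, and 0.398 for the stress list, beside 0.03 over all genes tested. Markers of gut summed to at most 0.369 CPM in any library and those of trachea to at most 4.70, and none of either was tested.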

How the data were processed

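The 4 footprint libraries were deposited as 1 table each, of 34729 transcripts. The authors counted reads, per the file headers, by assigning those with lengths from 25 to 100 nt to a transcript at an offset of 12 nt from their 5' end. The RPKM column deposited by the authors divides that count by transcript length and library total, and the deposited signal column is the count per nucleotide; a further deposited column gives the transcript length. Per the submitters' processing notes, the genome build was BDGP6 and the tools were DESeq2, bedtools 2.26.0, SAMtools 0.1.19, TopHat2 2.1.2 and Bowtie 1.0.0, with roles not given in the sources used here.

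Coordinates tied 34530 transcripts (99.4%) to 17436 RefSeq Release 6 genes or joint loci, and the transcript with the highest mean count stood for its gene. Transcripts without a gene held between 0.146% and 0.222% of reads and were left out. Library totals in the headers were 3122299, 6170623, 13942184 and 8714570, with 54.8% to 63.94% of gene counts in transfer RNA genes. Genes were filtered with filterByExpr, scaled by TMM and tested with edgeR 4.0.16 (quasi-likelihood, genotype only, R 4.3.3), with Benjamini-Hochberg adjustment over 7782 genes and calls at 0.05; every adjusted p printed is from this fit. An exact permutation test of 2 against 2 libraries cannot give p under 0.333. The functions were tested on simulated counts. Ratios pool the counts of each genotype over effective library sizes, and the floor is 3 counts over both wildtype libraries.

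The members and the gene lists were chosen with earlier results of these data known. Named genes were the members, the 5 genes on either side of each limit, called or overlapping neighbours, and list genes by smallest p; w, RpS5a, CG17097, upd3, Dscam4 and CG10175 were named after their values were seen. Promoter motifs and protein lengths were not analysed here.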

Additional observations from a re-analysis of the deposited data

How the results depend on the processing

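The set of 57 genes depended on its limits and on depth. A wildtype limit of 1 count left 32 genes and one of 5 counts gave 97. A mutant minimum of 20 left 13. After thinning to equal coding depth 6 genes met the limits, of which CG10175 is not a member. Leaving out a library, with the limits kept, gave between 63 (without mutant replicate 1) and 262 genes (without wildtype replicate 2), with 111 without wildtype replicate 1 and 147 without mutant replicate 2; fewer samples have to meet the limits by construction. The median level of 4.33 times the floor became 2 with a floor of 3 counts in each wildtype library. It ran from 1.57 (without wildtype replicate 2) to 4.41 (without mutant replicate 2), with 2.76 without wildtype replicate 1.

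The members called higher by edgeR, 24, were 45 with no filter on low counts, 5 after thinning and between 11 (without wildtype replicate 2) and 28 (without wildtype replicate 1) when a library was left out. Over all genes, 1590 higher calls became 847 with DESeq2 and between 1035 (without wildtype replicate 2) and 1413 when a library was left out. The fit with the replicate number as a block called 1938 genes higher, 1900 lower and 24 members; same-numbered libraries correlated at 0.25 in their deviations from the group means, over 2 pairs only, and the labels do not say that numbers pair the libraries. For the 24 tested members, 211 of 237 single-gene results kept their direction and call, 26 kept the direction without the call and 0 reversed. The rule that chose the members fixed this direction in advance, so nothing is read from the lack of reversals. Of 308 list counts, 266 stayed within 1.5 times the count from the edgeR fit that gave the calls above and 42 did not. Symbols were matched exactly for these counts, so genes listed under other symbols, such as nanos and Adh, were not followed. Germline genes called lower were therefore 1 at the start of this comparison, against the 2 given above. An alternative that pairs the numbers crosswise was not run. The exchange of the genotypes and the pair of Met75C genes counted once (56 genes) were added after the data were seen. So was the median multiple of the floor without that pair (4.26).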

Other observations

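At equal coding depth, 21 coding genes were nearly silent in the mutant. QC had 32 and 41 thinned counts in wildtype and 1 and 1 in the mutant, and CG42857 had 38 and 51 against 1 and 1. Oseg5 and Oseg1, both known from intraflagellar transport in cilia, had 26 and 25 against 0 and 0 and 10 and 12 against 1 and 2. The ribosomal protein gene RpS10a had 11 and 15 against 1 and 1. The others were CG11034, CG13032, CG42598, CG43135, CG4998, CG7800, CG9394, Cyp6a21, Ipk2, PIG-C, Slc45-1, Sodh2, Tusp, Ugt37D1, kumpel and tos. The 3 that met the limits in the deposited counts were CG13032 (18 and 48 against 1 and 0), CG43135 (14 and 24 against 1 and 0) and CG7800 (12 and 30 against 0 and 2).

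Genes that do not encode protein also met the limits, 7 in all. The pseudogenes CR32821, CR43377 and CR43381 each had 0 and 3 counts in wildtype and 23 and 11 in the mutant, identical values that may be shared reads. CR44383 had none against 22 and 16, asRNA:CR44020 had 0 and 1 against 25 and 20, lncRNA:CR30055 had 0 and 1 against 11 and 12, and tRNA:Ser-GCT-2-2 had 2 and 1 against 11 and 10.

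Further genes with at most 3 wildtype counts were seen in mutant library 1 and at 0 in mutant library 2, with the Acp and Sfp genes. CG31872 had 48 counts there, Anp, an antibacterial peptide of the male ejaculatory duct, had 32, and CG15635, CG42782, AttC and Obp51a had 25, 24, 21 and 20. Est-6, an esterase of the male tract, had 39 against 3.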
